A study of Mus musculus with 2 samples.

Results

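Hox genes encode transcription factors with a homeodomain, and in the mouse they lie in 4 clusters, Hoxa on chromosome 6, Hoxb on chromosome 11, Hoxc on chromosome 15 and Hoxd on chromosome 2. The genes described here are the 36 whose symbol is Hoxa, Hoxb, Hoxc or Hoxd with a number only and that have a probe set annotated with exactly 1 gene symbol, out of 22180 genes with such a probe set. They comprise 9 Hoxa, 10 Hoxb, 9 Hoxc and 8 Hoxd genes. Hoxa11 and Hoxd4 appear only on probe sets that also carry another symbol and were assigned no value.

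Kidney RNA of male mice with a systemic knockout of Iah1 (Iah1-KO) was compared with that of Iah1-WT mice. Iah1 is named for its likeness to an esterase that splits isoamyl acetate. All mice were switched at 6 weeks of age from chow to a high-fat diet, stayed on it for 12 weeks in cages of their own, and were killed after a fast of 4 hours. RNA of 3 mice was pooled on 1 Affymetrix array per genotype, so the 2 arrays give no spread between mice, no test is possible, and every difference below is between 2 pools. Neither the strain nor the design of the knockout allele is stated in the labels.

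Genes of one cluster are numbered along the chromosome, and genes with the same number in different clusters are paralogs that descend from one ancestral gene. In the embryo the low numbers (anterior genes) are used towards the head and the high numbers (posterior genes) towards the tail, in the order in which they lie in the cluster, and many adult organs keep a record of their position of origin in the Hox genes they still transcribe. In the mouse the 3 paralogs numbered 11 act together with Eya1 and Pax2 at the start of the permanent kidney, the paralogs numbered 10 act in the kidney stroma, and the promoter of Hoxb7 drives transgenes in the ureteric bud and the collecting duct.

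The clusters also carry microRNA genes, and these are shown because they share a seed, the stretch by which a microRNA pairs with its targets, across clusters. The mature sequences are from RefSeq (GRCm38.p6), written 5′ to 3′ with the seed, bases 2 to 8, in capitals. The genes of miR-10b and miR-10a lie within the Hoxd and Hoxb clusters.
miR-10b-5p (chr2:74726074-74726096, plus strand): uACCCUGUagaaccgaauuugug
miR-10a-5p (chr11:96317186-96317208, plus strand): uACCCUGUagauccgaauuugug
miR-196a-5p (Mir196a-1, chr11:96265187-96265208, plus strand): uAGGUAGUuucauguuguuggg
miR-196b-5p (chr6:52230129-52230150, minus strand): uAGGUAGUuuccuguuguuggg
The same mature miR-196a-5p is also encoded by Mir196a-2 in the Hoxc cluster. miR-196 is known to direct cleavage of the Hoxb8 mRNA in the mouse embryo.

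The targeted gene, Iah1, was at 3.60 (log2) in the Iah1-KO pool and 9.09 in the Iah1-WT pool. All values are the authors' log2 RMA values, a summary of the probes of each set after background correction and quantile normalization. The median over all 41345 probe sets was 4.03 in the Iah1-KO and 4.05 in the Iah1-WT pool, and a probe set below it is not shown to be above background. A log2 value of 6 was used as an arbitrary mark of clearly raised signal. Kidney markers were present in both pools, with the proximal tubule markers between 10.37 and 12.67 in the Iah1-KO pool and between 10.43 and 12.62 in the Iah1-WT pool. Markers of adrenal cortex, adipocytes, skeletal muscle and urothelium did not reach 6 in either pool. Stromal markers, from a cell type that also uses Hox genes, lay between 6.10 and 7.91 in the Iah1-KO and between 6.12 and 8.03 in the Iah1-WT pool, with differences from -0.12 to 0.09. In whole kidney RNA, fewer cells of a type and less RNA per cell cannot be told apart.

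Adult kidney gave raised signal mostly from the middle of the clusters. Of the 36 Hox genes, 23 (63.9%) lay above the array median in both pools, against 57.2% of all named genes, and 13 lay below it in both. The mark of 6 was reached in at least 1 pool by 9 Hox genes (25.0%), against 34.6% of all named genes. By the usual classes, 4 of 7 anterior genes (numbers 1 to 3), 12 of 14 central genes (4 to 8) and 7 of 15 posterior genes (9 to 13) were above both medians. The 8 posterior genes below both medians were the 8 measured genes numbered 11 to 13, so each measured gene numbered 9 or 10 was above. Probe sets differ in how well their probes bind, so the order of signals between genes is not an order of transcript abundance.

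**Figure D1:**
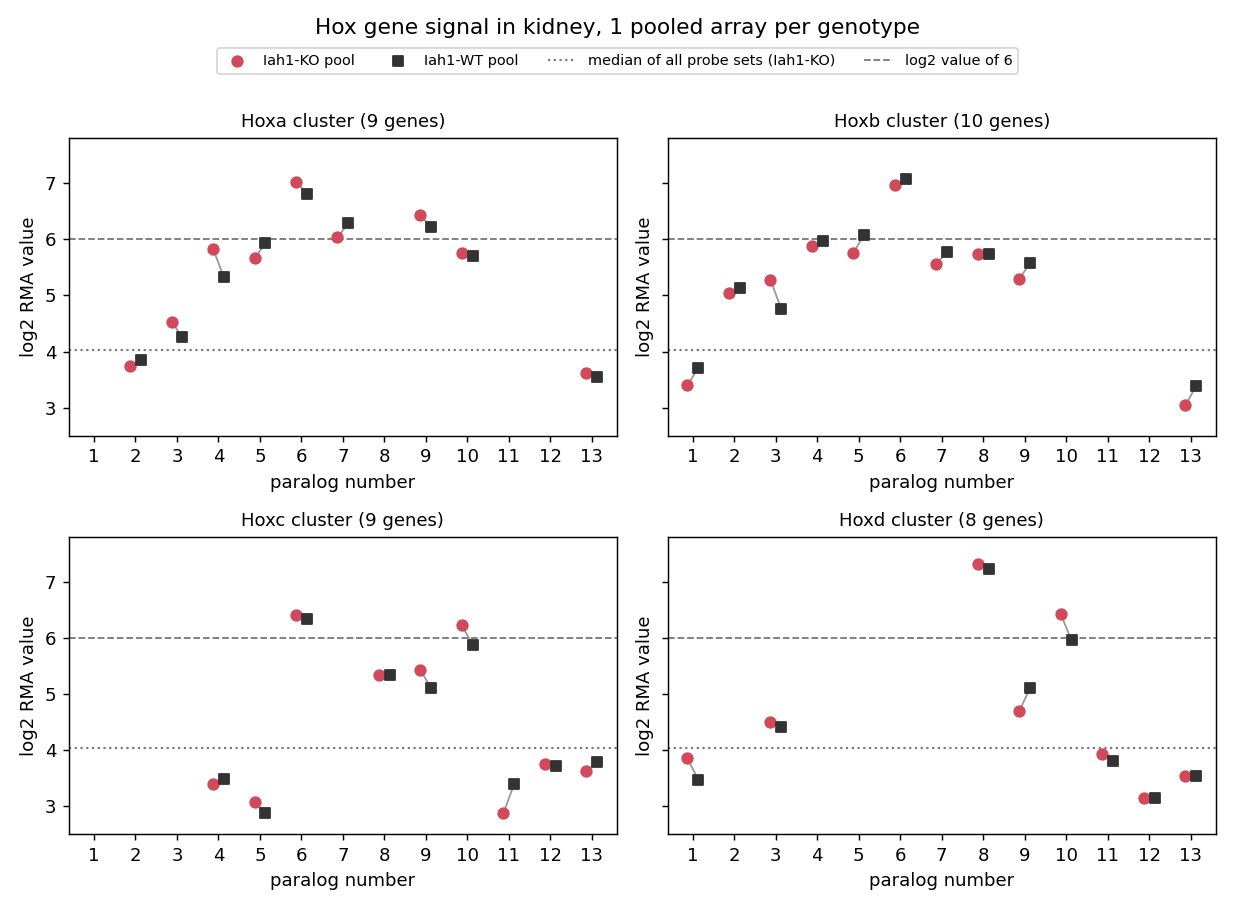
Log2 RMA value (vertical axis) of each Hox gene against its paralog number (horizontal axis), 1 panel per cluster. Circles are the Iah1-KO pool and squares the Iah1-WT pool, joined for each gene; the dotted line is the median of all probe sets in the Iah1-KO pool (4.03) and the dashed line a log2 value of 6. Both pools trace the same outline, with genes numbered 11 to 13 below the dotted line in each cluster that has them.

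Among the central genes, Hoxd8 had 7.32 in the Iah1-KO pool and 7.23 in the Iah1-WT pool. Hoxa6 had 7.03 in the Iah1-KO and 6.82 in the Iah1-WT pool, and its paralogs Hoxb6 and Hoxc6 were also above 6 in both pools. Hoxb6 had 6.97 in the Iah1-KO and 7.07 in the Iah1-WT pool, and Hoxc6 had 6.41 in the Iah1-KO and 6.33 in the Iah1-WT pool. The 3 genes numbered 6 were therefore the one paralog group in which each measured member passed the mark in both pools. Hoxa7 had 6.03 in the Iah1-KO and 6.29 in the Iah1-WT pool, and Hoxb7, the gene whose promoter marks the collecting duct, had 5.57 in the Iah1-KO and 5.77 in the Iah1-WT pool. The other genes numbered 8 stayed under the mark: Hoxb8 had 5.73 in the Iah1-KO and 5.74 in the Iah1-WT pool, and Hoxc8 had 5.33 in both.

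The genes numbered 4 and 5 lay on both sides of the array medians. Hoxb4, a regulator known for expanding blood stem cells, had 5.88 in the Iah1-KO and 5.97 in the Iah1-WT pool, just under the mark, and Hoxa5, which is needed for lung development in the mouse, had 5.66 in the Iah1-KO and 5.93 in the Iah1-WT pool. Hoxb5 was just over it in 1 pool, with 5.75 in the Iah1-KO and 6.08 in the Iah1-WT pool. In the Hoxc cluster the same numbers were dim. Hoxc4 had 3.40 in the Iah1-KO and 3.48 in the Iah1-WT pool, and Hoxc5 had 3.07 in the Iah1-KO and 2.87 in the Iah1-WT pool. These 2 genes were the central genes below both array medians.

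The posterior genes split at number 10. Hoxa9, a regulator of blood progenitors, had 6.43 in the Iah1-KO and 6.21 in the Iah1-WT pool. Hoxd10 had 6.42 in the Iah1-KO and 5.95 in the Iah1-WT pool, Hoxc10 had 6.22 in the Iah1-KO and 5.87 in the Iah1-WT pool, and Hoxa10 had 5.76 in the Iah1-KO and 5.71 in the Iah1-WT pool. The genes numbered 11 to 13 lay between 2.87 and 3.93 in the Iah1-KO and between 3.14 and 3.80 in the Iah1-WT pool. Of the paralogs that start the kidney in the mouse embryo, Hoxc11 had 2.87 in the Iah1-KO and 3.40 in the Iah1-WT pool, and Hoxd11 had 3.93 in the Iah1-KO and 3.80 in the Iah1-WT pool. Hoxd12 had the same deposited value, 3.14, in both pools. Hoxa13 (3.61 in the Iah1-KO, 3.54 in the Iah1-WT pool) and Hoxd13 (3.53 in the Iah1-KO, 3.54 in the Iah1-WT pool), which act in digits and the genital tract, were also below both array medians.

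At the anterior end, Hoxb1, which patterns the hindbrain, had 3.40 in the Iah1-KO and 3.71 in the Iah1-WT pool, and Hoxd1 had 3.85 in the Iah1-KO and 3.47 in the Iah1-WT pool. Hoxa2, which patterns the second branchial arch, had 3.75 in the Iah1-KO and 3.85 in the Iah1-WT pool, whereas Hoxb2 had 5.04 in the Iah1-KO and 5.14 in the Iah1-WT pool. The genes numbered 3 were above both medians, with Hoxa3 at 4.54 in the Iah1-KO and 4.25 in the Iah1-WT pool and Hoxd3 at 4.49 in the Iah1-KO and 4.41 in the Iah1-WT pool. Signal was thus raised in some anterior genes but reached 6 in none of the 7 when each was read from a probe set of its own. Probe sets shared with another symbol, assigned to no gene, did not all stay under 6. The set annotated to both Hoxb3 and Hoxb2 had 6.23 in the Iah1-KO and 6.02 in the Iah1-WT pool. That of Hoxd4 and Hoxd3 had 5.997 in the Iah1-KO and 6.12 in the Iah1-WT pool. That of Hoxa3 and a non-Hox symbol had 4.84 in the Iah1-KO and 4.81 in the Iah1-WT pool.

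The promoter sequences of the brightest and the dimmest gene among those with 1 promoter in the RefSeq table (GRCm38.p6) are shown. Hoxc5 and Hoxc11 had a lower mean signal than the dimmest gene shown, Hoxd12, but no promoter was matched for them. Each is the 120 bases before the annotated start, on the gene's own strand, with CG dinucleotides in capitals.
Hoxd8 (chr2:74704495-74704614, plus strand): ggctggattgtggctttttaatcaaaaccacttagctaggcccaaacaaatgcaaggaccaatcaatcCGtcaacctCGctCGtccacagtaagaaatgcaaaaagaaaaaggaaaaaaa
Hoxd12 (chr2:74674893-74675012, plus strand): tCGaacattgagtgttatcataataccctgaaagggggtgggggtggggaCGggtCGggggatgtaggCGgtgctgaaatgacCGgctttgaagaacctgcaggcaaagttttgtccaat
Hoxd8 has 3 CG dinucleotides in this window and Hoxd12 has 5. Promoters of 300 bases were matched for 20 of the 36 Hox genes (22 promoters), mostly of the Hoxa and Hoxd clusters. These promoters held a median of 17 CG dinucleotides, against 7 over all 32851 promoters in the table. The letters TGATTNAT, bound by Hox proteins together with their Pbx partners, were found on either strand in 2 of the 22, a share of 9.09%, against 3.22% of all promoters. The letters TTTATG, as bound by Cdx factors, were found on either strand in 4 of the 22, a share of 18.2%, against 11.9%. TATAAA, also counted, was found in 3 of the 22, the same rounded share as over all promoters. For 22 promoters these counts are near the background shares, and the differences in share were not tested. No promoter was measured here, and a match of letters is not a binding site.

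Between the genotypes, no Hox gene differed by 1.5-fold (0.585 on the log2 scale). The count was 0 of 36 higher in the Iah1-KO pool, against 0.996% of all named genes, and 0 of 36 lower, against 1.42%. In either direction 2.42% of named genes passed 1.5-fold, which over 36 genes comes to 0.872 of a gene, so the count of 0 is near the background. Among named genes that did not reach 6 in either pool the share was 3.47%, and among those that did it was 0.43%. The median Hox difference, Iah1-KO minus Iah1-WT, was -0.0002 on the log2 scale, against -0.0024 over all named genes. Of the 36 genes, 17 were above 0, 18 below and 1 at 0.

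The differences nevertheless spread a little wider than those of named genes in the same range of signal. The median size of a difference was 0.20 for the Hox genes and 0.15 for the 13496 named genes within their range of mean signal. To scale each difference, a robust SD was taken over the 500 named genes nearest in mean signal; it describes spread over genes on these arrays, not over mice. Its median for the Hox genes was 0.24. Of the 36 Hox genes, 19 (52.8%) lay within 1 such SD of 0, against 67.1% of all named genes, and 4 (11.1%) lay beyond 2, against 6.88% of all named genes. None lay beyond 3, against 1.33% of all named genes. For 36 genes the counts beyond 2 and beyond 3 are near these shares, and the wider spread was not tested.

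**Figure D2:**
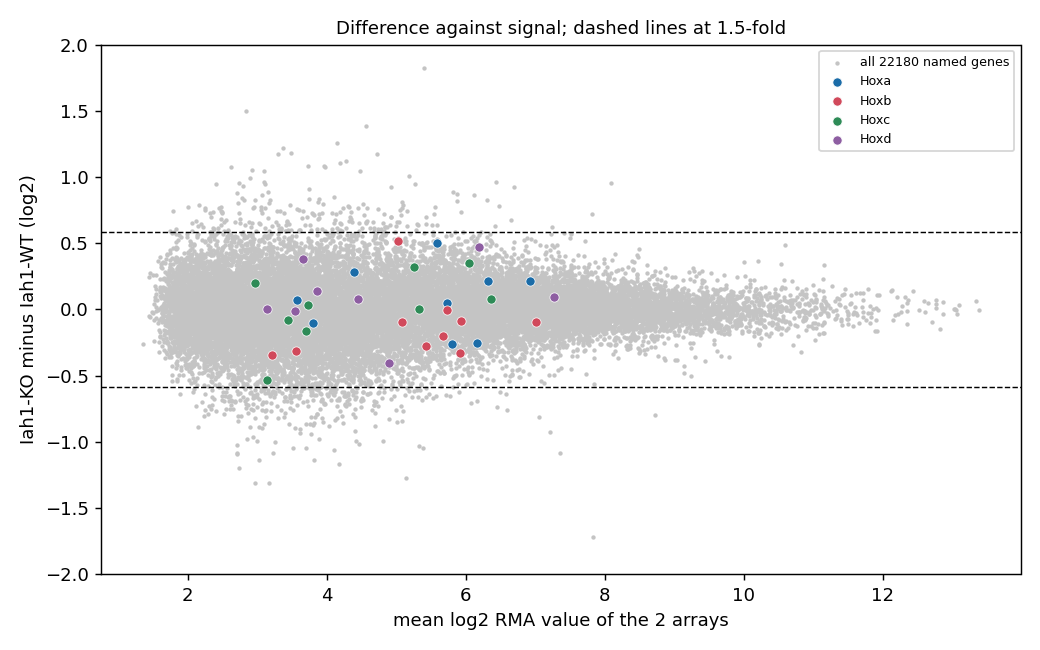
Difference between the pools, Iah1-KO minus Iah1-WT on the log2 scale (vertical axis), against the mean log2 RMA value of the 2 arrays (horizontal axis). Grey points are all 22180 named genes, of which 2 fall outside the plotted range, coloured points are the Hox genes by cluster, and dashed lines mark 1.5-fold. Each Hox gene lies between the dashed lines, inside the cloud of other genes.

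The 4 genes beyond 2 local robust SDs were Hoxd10, Hoxa4, Hoxb3 and Hoxc11. Hoxd10, with the values given above, was higher in the Iah1-KO pool by 0.47, which is 2.82 local robust SDs and a 1.38-fold value. Hoxa4 had 5.83 in the Iah1-KO and 5.33 in the Iah1-WT pool, a difference of 0.50 (2.74 local robust SDs). Hoxb3 had 5.28 in the Iah1-KO and 4.76 in the Iah1-WT pool, a difference of 0.52 (2.02 local robust SDs). These 3 were higher in the Iah1-KO pool and lay above both array medians. Hoxc11 was lower by a difference of -0.53 (-2.13 local robust SDs), the one nearest to 1.5-fold, and both of its values lay below the array medians, so neither is shown to be above background.

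Smaller differences followed in both directions. On the higher side, Hoxd1 differed by 0.38, Hoxc10 by 0.35 and Hoxc9 (5.42 in the Iah1-KO and 5.10 in the Iah1-WT pool) by 0.32. On the lower side, Hoxd9 had 4.70 in the Iah1-KO and 5.10 in the Iah1-WT pool, a difference of -0.40. Hoxb13, known as a regulator in the prostate, had 3.04 in the Iah1-KO and 3.38 in the Iah1-WT pool, a difference of -0.34. Hoxb5 differed by -0.33, Hoxb1 by -0.32 and Hoxb9 (5.30 in the Iah1-KO and 5.57 in the Iah1-WT pool) by -0.27. Hoxd1, Hoxb1 and Hoxb13 lay below the array medians in both pools, so none of them is shown to be above background. Hoxb5 was the one Hox gene with a further probe set of its own, and that set had 5.28 in the Iah1-KO and 5.21 in the Iah1-WT pool, a difference of 0.07 in the other direction. Its difference is therefore uncertain.

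Paralogs did not share a direction throughout. All 3 genes numbered 10 were above 0, with Hoxa10 at 0.05 beside Hoxc10 and Hoxd10, and so were the 3 numbered 3, with Hoxa3 at 0.28 and Hoxd3 at 0.08 beside Hoxb3. Both genes numbered 7 were below 0, Hoxa7 at -0.25 and Hoxb7 at -0.20. Probe sets with a further symbol did not all keep these directions. The set annotated to both Mira and Hoxa7 was at 0.36, and the set annotated to both Hoxd4 and Hoxd3 at -0.12. The set annotated to both Hoxb3 and Hoxb2 was at 0.21, and the set annotated to both Hoxa3 and 5730446D14Rik at 0.03. The genes numbered 9 were divided, with Hoxa9 (0.21) and Hoxc9 above 0 and Hoxb9 and Hoxd9 below. Those numbered 5 were divided as well, with Hoxa5 (-0.26) and Hoxb5 below 0 and Hoxc5 at 0.20. With 2 to 4 genes per number, such runs of signs are a description only.

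**Figure D3:**
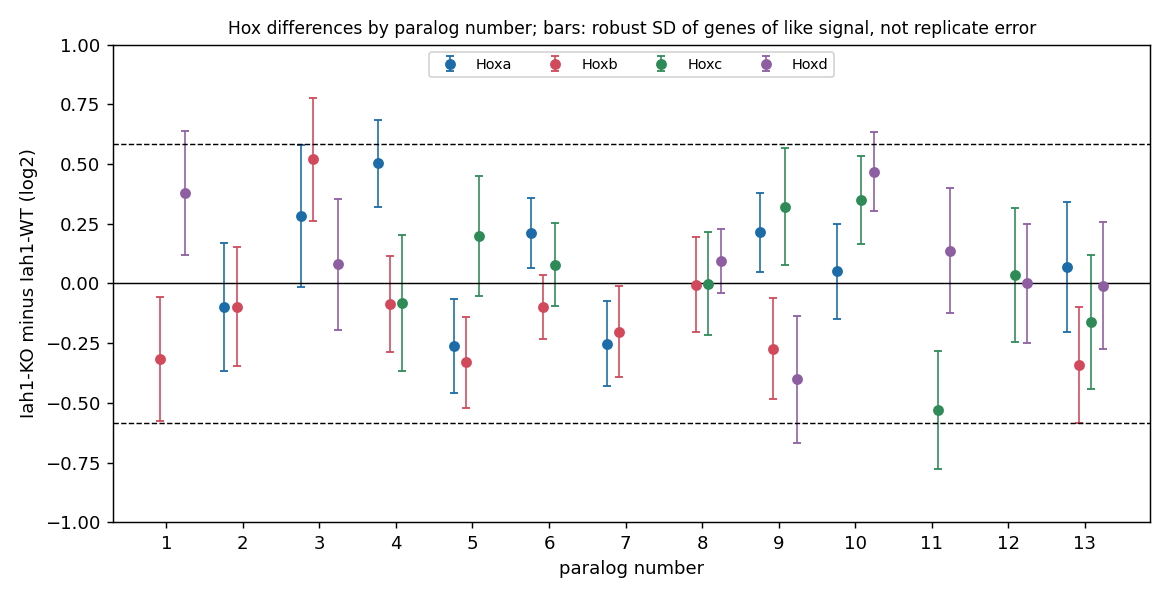
Difference between the pools, Iah1-KO minus Iah1-WT on the log2 scale (vertical axis), of each Hox gene against its paralog number (horizontal axis), coloured by cluster. Bars are 1 local robust SD of genes of like signal and not an error between mice; dashed lines mark 1.5-fold. The points range from -0.53 (Hoxc11) to 0.52 (Hoxb3), and all Hoxb points other than Hoxb3 lie below 0.

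By cluster, most Hoxb genes had lower values in the Iah1-KO pool when each was read from its brightest probe set. Of the 10 Hoxb genes, 9 were below 0, with a median difference of -0.15, whereas 50.5% of all named genes were below 0. The exception was Hoxb3, at 0.52. The other Hoxb differences were -0.10 for Hoxb2, -0.09 for Hoxb4, -0.10 for Hoxb6 and -0.0047 for Hoxb8. These 4 lay within 1 local robust SD of 0. No Hoxb gene with a lower value lay beyond 2 such SDs, and the 1 Hoxb gene that did was Hoxb3. Hoxb1 and Hoxb13 lay below both array medians, so neither is shown to be above background. After loess correction 9 of 10 genes were also below 0, with a median of -0.16. The other probe sets that carry a Hoxb symbol were above 0: the further set of Hoxb5 at 0.07, the set annotated to both Hoxb3 and Hoxb2 at 0.21, and the set annotated to both Mir10a and Hoxb4 at 0.35 (2.28 in the Iah1-KO and 1.93 in the Iah1-WT pool, below both array medians). The lower values therefore rest on 1 probe set per gene, which for 9 of the 10 Hoxb genes was the only one of their own. With the probe sets of Hoxb5 averaged, 9 of 10 genes were also below 0, with a median of -0.11. The Hoxa, Hoxc and Hoxd clusters had medians of 0.07, 0.04 and 0.09, with 6 of 9, 5 of 9 and 5 of 8 genes above 0. The difference between clusters was not tested, since genes of a cluster on 2 arrays are not replicates.

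Genes around the clusters were examined next. Of the 16 protein-coding genes next to the clusters (2 on each side of each), 15 were measured, with differences from -0.16 (Lnpk) to 0.19 (Evx2). None passed 1.5-fold, against 2.42% of all named genes, a share that for 15 genes comes to less than 1. Evx1 and Evx2, homeobox genes beyond the posterior ends of Hoxa and Hoxd, were dim: Evx1 had 3.89 in the Iah1-KO and 3.72 in the Iah1-WT pool, and Evx2 had 3.12 in the Iah1-KO and 2.93 in the Iah1-WT pool. On both sides of Hoxb the nearest genes differed by -0.10 (Ttll6) and 0.06 (Skap1), and the next ones, Calcoco2 and Snx11, by 0.10 and -0.15.

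Of 31 non-coding genes inside the clusters, 9 had a probe set of their own, and their differences ran from -0.42 to 0.40. The lowest was Mir196a-2, with 3.17 in the Iah1-KO and 3.59 in the Iah1-WT pool, and the highest was the long non-coding RNA Gm53 of the Hoxb cluster, with 6.03 in the Iah1-KO and 5.63 in the Iah1-WT pool. Hoxd3os1, on the Hoxd cluster, had 4.87 in the Iah1-KO and 4.55 in the Iah1-WT pool. Hotair, a long non-coding RNA between Hoxc11 and Hoxc12 that is studied for its effect on Hoxd genes, had 3.04 in the Iah1-KO and 3.14 in the Iah1-WT pool. Mir196a-1, whose mature product is printed above, had 4.81 in the Iah1-KO and 4.64 in the Iah1-WT pool, and Mir10b had 2.07 in the Iah1-KO and 1.93 in the Iah1-WT pool. The labelling starts from total RNA and these probe sets are annotated to the genes, so they are not taken as levels of the mature microRNAs. Strand assignment of the probes was not examined.

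Hox proteins bind DNA with cofactors of the Pbx, Meis and Pknox families. Of 9 cofactor genes, 8 were measured, and their median difference was 0.06, against -0.0024 over all named genes. Of the 8, 5 were above 0, against 49.3% of all named genes, and 0 passed 1.5-fold, against 2.42%, which for so few genes is near the background. Meis2 had 7.57 in the Iah1-KO and 7.50 in the Iah1-WT pool, and Pknox1 had 6.47 in the Iah1-KO and 6.28 in the Iah1-WT pool. They were the 2 cofactors at or above the mark of 6. The furthest differences were -0.33 for Pbx4, 0.26 for Meis3 and -0.21 for Pknox2, all dim.

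Polycomb complexes keep Hox genes silent and Trithorax complexes keep them active. Of 31 such genes, 30 were measured, with a median of -0.04. Of the 30, 20 were below 0, against 50.5% of all named genes, and 10 above. The count past 1.5-fold was 0, against 2.42% of all named genes and 0.43% of those that reach the mark of 6, as 24 of the 30 do, and is near the background. Cbx2, a Polycomb chromobox protein whose loss shifts the axial skeleton in the mouse, had 6.05 in the Iah1-KO and 6.41 in the Iah1-WT pool, a difference of -0.36. Pcgf2 differed by -0.34 and Jarid2, a subunit that helps recruit Polycomb complex to DNA, by -0.33. Ezh2, a histone methyltransferase of this system, had 6.10 in the Iah1-KO and 6.13 in the Iah1-WT pool, and Kmt2a, its Trithorax counterpart, had 7.33 in the Iah1-KO and 7.23 in the Iah1-WT pool.

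Retinoic acid and the Cdx factors turn Hox genes on in the embryo. All 17 listed genes were measured, 9 were above 0 and 8 below, with a median of 0.04. Of the 17, 1 was higher by 1.5-fold, against 0.996% of all named genes, and 3.47% of named genes under the mark of 6 passed 1.5-fold in either direction. This was Aldh1a2, itself under the mark, a retinoic acid synthesising enzyme, with 4.56 in the Iah1-KO and 3.82 in the Iah1-WT pool, a difference of 0.74 that starts below the array median in the Iah1-WT pool. Another such enzyme, Aldh1a1, had 6.60 in the Iah1-KO and 7.06 in the Iah1-WT pool, a difference of -0.46 in the other direction. The local robust SD was 0.15 for Aldh1a1 and 0.29 for Aldh1a2. Both genes lay beyond 2 such SDs, and no other gene of the list did. Rxrb, a partner of retinoic acid receptors, differed by 0.33.

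Of 12 genes that work with Hox genes in kidney development, 11 were measured, with a median of 0.18. Of the 11, 9 were above 0, against 49.3% of all named genes. None was beyond 1.5-fold, against 2.42%, which for so few genes is near the background. Of the 11, 8 lay within 1 local robust SD of 0, against 67.1% of all named genes, and Pax2 and Sall1 lay beyond 2. Pax2 had 6.27 in the Iah1-KO and 5.80 in the Iah1-WT pool, a difference of 0.47, and Sall1, a regulator of nephron progenitors, had 6.67 in the Iah1-KO and 6.26 in the Iah1-WT pool, a difference of 0.41. Gata3, a collecting duct regulator, differed by -0.28. Six2 and Gdnf, which mark the progenitors of the embryonic kidney, were below both array medians, and so was Ret. Some marker genes also differed between the pools. Of 6 principal cell markers of the collecting duct 4 were above 0 (from -0.12 to 0.57, with Aqp4 and Aqp2 at 0.57 and 0.49). Of 6 proximal tubule markers 4 were above 0 as well (from -0.06 to 0.23). Of 5 intercalated cell markers 3 were below 0 (from -0.81, for Atp6v1g3, to 0.18). The 4 loop of Henle markers were below 0 (from -0.24 to -0.04). Of 4 adipocyte markers, 3 were below 0 (from -0.65 to 0.10), and the 4 skeletal muscle markers were above 0 (from 0.07 to 0.23). Atp6v1g3 and the dim adipocyte markers Lep (-0.65) and Cidec (-0.64) were lower by at least 1.5-fold, against 1.42% of all named genes. No other marker examined passed 1.5-fold. Of all named genes, 49.3% were above 0 and 50.5% below, so with so few genes per list these counts are a description only. The part of the marker genes in the Hox differences was not tested.

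**Figure D4:**
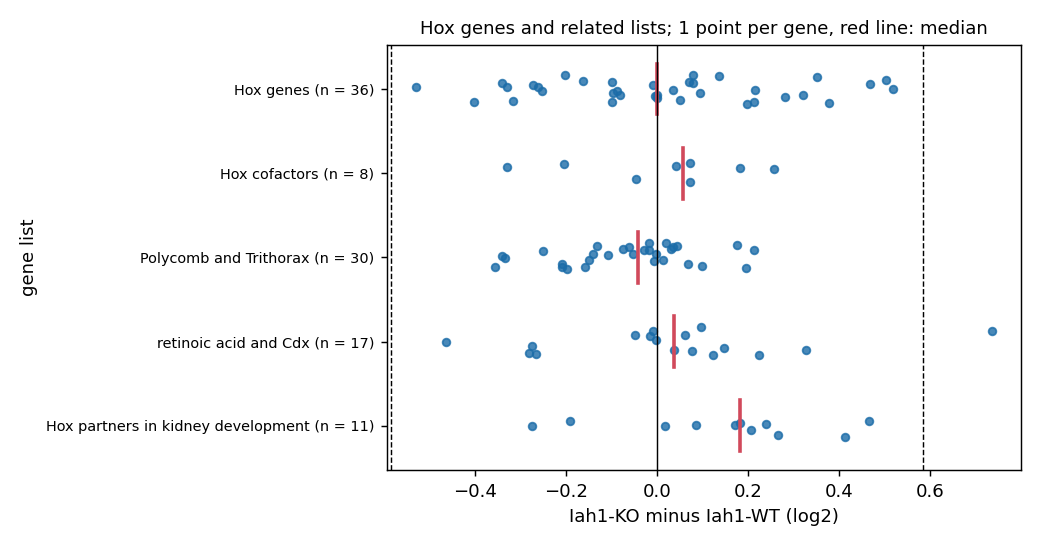
Difference between the pools, Iah1-KO minus Iah1-WT on the log2 scale (horizontal axis), for the Hox genes and 4 related gene lists (vertical axis), 1 point per measured gene. Red lines are medians and dashed lines mark 1.5-fold; the points are spread vertically only for legibility. Aldh1a2, at 0.74, is the one gene beyond a dashed line.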

How the data were processed

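The deposited log2 values, 1 per probe set, come from RMA as run by the authors; the submitters' processing notes name Affymetrix Expression Console 1.3.0. Per the labels' protocols, 100 ng of RNA was labelled. No source used here names the genome build of the array annotation. Quantile normalization hides a shift of most transcripts, and RMA compresses differences of dim probe sets. Of 41345 probe sets, 23521 had exactly 1 symbol in GEO's platform annotation, 1814 several and 16010 none. The brightest of a gene's probe sets was used, with no expression floor. Differences were taken as Iah1-KO minus Iah1-WT with Python 3.11.15, numpy 2.4.6, pandas 2.3.3 and statsmodels 0.14.6; the local robust SD is the median absolute deviation times 1.4826. The procedure was tested on simulated data. Named genes were Iah1, Hox genes at or above 6 in either pool, the 6 furthest in each direction, those nearest the thresholds, and the 3 furthest of each other list; further Hox and list genes are named to account for members. Members and lists were chosen with earlier results of these data known. Alternatives were another floor, fold or summary, centring, and loess (span 0.3). With 1 array per genotype, the number of arrays limits the precision.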

Additional observations from a re-analysis of the deposited data

How the results depend on the processing

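No Hox gene differed by 1.5-fold under the settings tried: as deposited, centred, loess-corrected, averaged over probe sets, or with a floor of log2 5, 6 or 7. None reached 2-fold (0.18% of named genes did) or 3 local robust SDs. The median Hox difference was -0.0002 as deposited, lay between -0.0004 and 0.03 with a floor of log2 5, centring, loess, averaged probe sets or the list mean, and was 0.095 with a floor of log2 6 or of log2 7, which leave 9 and 3 genes. The number of Hox genes past the mark was 21 at log2 5 and 3 at log2 7, in place of 9 at log2 6, 6 where both pools had to reach log2 6, and 8 with probe sets averaged. Centring shifted every gene by 0.0024, and loess shifted single Hox genes by at most 0.039, so these settings could move signs only of differences near 0 (Hoxc8 when centred, 0.0019, and Hoxd13 after loess, 0.03). Averaging probe sets could change 1 Hox gene, Hoxb5, which then differed by -0.13. The cofactor median was 0.13 with a floor of log2 6, which leaves 2 genes, and the retinoic acid and Cdx median was 0.071 after loess; for the retinoic acid list the cause was not tested. Medians per cluster under other settings were added after the data were seen. No paired analysis was possible because each genotype has 1 array. Genes below the array median have no level that can be told from background.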

Other observations

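Several probe sets in the clusters carry a Hox symbol together with another one and were assigned to no gene. Of 7 such probe sets, 5 were above 0 and 2 below, against 49.3% and 50.5% of all named genes. The count past 1.5-fold was 0, against 2.42% of all named genes. With so few sets the signs are a description only, and the count of 0 is near the background. The set annotated to both Mira and Hoxa7 had 7.22 in the Iah1-KO pool and 6.86 in the Iah1-WT pool, a difference of 0.36, while the set annotated to Hoxa7 alone differed by -0.25. The set annotated to both Hoxb3 and Hoxb2 had 6.23 in the Iah1-KO and 6.02 in the Iah1-WT pool. The set annotated to both Hoxd4 and Hoxd3 had 6.00 in the Iah1-KO and 6.12 in the Iah1-WT pool. The 2 sets annotated to both Hoxa11 and Hoxa11os differed in opposite directions: they had 3.66 and 3.40 in the Iah1-KO pool, and 3.32 and 3.75 in the Iah1-WT pool, with differences of 0.34 and -0.35. All 4 of these values lay below the array medians, like those of Hoxc11 and Hoxd11.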
